A study of Mus musculus with 9 samples.

Results

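The 78 mitochondrial ribosomal protein genes of the mouse, the genes that encode the protein part of the mitoribosome, were followed in fibroblasts exposed to viral nucleic acid mimics. The members are all protein-coding genes whose symbol in the GENCODE M21 annotation (GRCm38) begins with Mrpl or Mrps followed by a digit, matched by Ensembl identifier, and no expression value entered the choice. They make up 78 of the 46603 gene identifiers counted, and 77 of them were among the 14176 genes that passed the filter on low counts. The cells were BALB/c mouse embryonic fibroblasts from embryos of day 10.5 that carry a knockout of Actb, the gene of cytoplasmic β-actin. All 9 libraries came from knockout cells, and wild-type cells were not analysed here. In the mock group the transfection reagent Lipofectamine 2000 was applied alone in Opti-MEM. The other two groups received 10 µg/ml of a synthetic double-stranded DNA, poly(dA:dT), or 10 µg/ml of a double-stranded RNA mimic, poly(I:C), by the same reagent, and all groups were sampled at 6 h with 3 libraries each. Whether the knockout cells came from 1 or several embryos, and whether the libraries of a group were separate cultures, is not stated in the labels, so the spread that p-values measure may be technical.

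Mitochondria translate the few mRNAs of their own genome on a dedicated ribosome. Its rRNAs are transcribed inside the organelle, whereas all of its proteins are encoded in the nucleus, made in the cytosol and imported. The small subunit decodes the mRNA and the large subunit joins the amino acids; many of their proteins have counterparts in bacterial ribosomes, and others are particular to mitochondria. The known products of the mitoribosome in mammals are subunits of the oxidative phosphorylation complexes, which also hold many nuclear-encoded subunits. Double-stranded RNA and DNA in the cytosol trigger innate sensors that lead to interferon production and a broad change of transcription.

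Assigned counts were 16082772 to 29219797 per library, and Actb itself kept 29.1 to 34.6 CPM (counts scaled to the TMM-corrected library total) in the 9 knockout libraries, with every poly(dA:dT) library (29.1 to 31.5) below every mock library (32.1 to 34.6) and the poly(I:C) libraries (31.5 to 33.9) overlapping mock; whether these reads fall in the deleted part was not tested. The 8 fibroblast markers summed to 7305 to 7469 CPM in mock, led by Col1a1, and to 6367 to 6663 CPM after poly(I:C). Their mock means were 2996 CPM for Col1a1, 2265 for Vim, 1925 for Fn1, 157 for Pdgfrb, 39.2 for Pdgfra, 21.8 for Col1a2, 7.84 for Dcn and 1.55 for Thy1. Fn1 was called higher with both mimics (log2 fold changes 0.32 and 0.40). Col1a1, Col1a2, Pdgfra, Pdgfrb and Vim were called lower with both, Dcn only with poly(dA:dT) and Thy1 only with poly(I:C). Markers of macrophages (6 genes) summed to between 2.22 and 4.90 CPM over all libraries, those of endothelium (5 genes) to between 0.789 and 4.83, of epithelium (5 genes) to between 7.68 and 9.84, and of skeletal muscle (5 genes) to between 9.87 and 17.9. The endothelial sum was higher after both mimics, with 0.789 to 1.11 CPM in mock, 2.74 to 3.25 with poly(dA:dT) and 4.65 to 4.83 with poly(I:C). The 5 neural markers summed to 361 to 409 CPM, of which in mock a mean of 336 came from Nes, an intermediate filament gene, 36.8 from Map2 and 32.1 from Tubb3, both neuronal cytoskeleton genes. The part of other cell types in the results was not tested, and in these bulk samples fewer cells of a type and less RNA per cell cannot be told apart.

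The stretches before the annotated starts of 4 members are shown because these genes carry the results below: Mrps2 rose most, Mrpl42 fell most after poly(I:C), Mrpl34 fell most after poly(dA:dT), and Mrpl45 rose slightly after poly(I:C) and holds matches to the NRF1 motif. Each is the 120 bases upstream of the RefSeq start (GRCm38.p6, a C57BL/6J genome, whereas the cells were BALB/c), read on the gene's own strand, and holds no annotated exon. They lie at chr2:28467946-28468065 (plus strand, Mrps2), chr10:95501950-95502069 (minus strand, Mrpl42), chr8:71464806-71464925 (plus strand, Mrpl34) and chr11:97315596-97315715 (plus strand, Mrpl45). Capitals mark motif matches on either strand.
Mrps2: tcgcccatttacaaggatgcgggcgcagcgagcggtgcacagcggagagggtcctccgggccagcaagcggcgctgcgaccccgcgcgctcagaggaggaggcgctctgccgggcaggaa
Mrpl42: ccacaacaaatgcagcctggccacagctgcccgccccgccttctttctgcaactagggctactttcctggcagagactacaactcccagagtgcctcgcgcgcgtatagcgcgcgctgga
Mrpl34: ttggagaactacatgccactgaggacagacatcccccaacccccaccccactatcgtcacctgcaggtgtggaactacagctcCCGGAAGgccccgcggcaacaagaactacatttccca
Mrpl45: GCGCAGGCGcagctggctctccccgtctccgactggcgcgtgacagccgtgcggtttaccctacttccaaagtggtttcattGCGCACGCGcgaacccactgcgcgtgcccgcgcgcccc
The match in Mrpl34 is CCGGAAG, the core bound by ETS factors such as GABPA, and both matches in Mrpl45 are GCGCANGCG, the core of the site of NRF1, a transcription factor known for its control of nuclear genes of mitochondria. The stretches of Mrps2 and Mrpl42 hold none of the motifs searched.

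The same motifs were counted in the full RefSeq promoter windows (250 bases before to 50 after a start), of which 75 belonged to 69 members. On either strand GCGCANGCG was present in 21.3% of the members' windows, against 6.25% of all 32851 windows and 12.7% of the 13367 windows of tested genes. CCGGAAG was present in 34.7% of the members' windows, against 8.86% of all and 16.8% of those of tested genes. AAGATGGCG, the core bound by YY1, was present in 10.7%, against 1.40% and 2.86%, and the match in Mrpl42 lies after its start. CACGTG (9.33%, against 7.15% and 9.73%), CCAAT (30 of the 75 windows, against 37.4% and 37.9%) and TATAAA (6.67%, against 13.6% and 7.19%) completed the search, and CCGGAAG can run into AAGATGGCG through the letters AAG that both hold. Members with a GCGCANGCG match had a median log2 fold change of -0.12 after poly(I:C) (16 tested genes, 10 called lower, 3 called higher) and those without one -0.27 (52 genes, 41 lower, 2 higher). After poly(dA:dT) both medians were -0.11, with 8 of 16 and 26 of 52 lower. For CCGGAAG the medians after poly(I:C) were -0.25 with a match (25 genes, 20 lower) and -0.20 without one (43 genes, 31 lower). After poly(dA:dT) both were -0.11, with 13 of 25 and 21 of 43 lower. A match is a description of letters and not a measured binding site.

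The mean mock level of the 77 tested members ranged from 12.6 to 160 CPM with a median of 52.6, and the coefficient of variation over the 3 mock libraries had a median of 2.96%. Per kb of annotated exon, the scale on which genes can be compared, the highest levels were those of Mrpl28 at 114 ± 3.87, Mrpl54 at 91.4 ± 0.815 and Mrpl49 at 85.5 ± 1.61 CPM per kb (SD, n = 3), all proteins of the large subunit. The lowest tested members were Mrpl23 at 2.91 ± 0.278, Mrpl48 at 3.43 ± 0.137 and Mrps30 at 4.57 ± 0.111 CPM per kb. Mrpl49 and the next in order, Mrps21 at 84.8 ± 1.28, did not differ beyond their SDs, whereas the other neighbours named were further apart than theirs. This order rests on the length assumed: with the longest coding transcript in place of all exons Mrpl23 came to 19.3 and Mrpl28 to 148 CPM per kb.

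Mrpl53 (chromosome 6, 83109040 to 83109939), a large subunit protein gene, had 0 counts in all 9 libraries, which allows up to 0.107 to 0.180 CPM per library, and it was not tested. Of its 790 exon bases 88.0% are shared with 2 other annotated genes, Ccdc142os and Gm42688. The sources used here do not give how the authors' counting treats reads on shared exons. In all 33 members share exon bases with another gene, 18 of them more than 10% and 3 of them (Mrpl53, Mrps34 and Mrps25) over 50%, and values of those members are uncertain to that extent.

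After poly(dA:dT), 37 of the 77 tested members fell and 3 rose against mock, while 37 did not pass the test (edgeR quasi-likelihood test, Benjamini-Hochberg adjusted p under 0.05 over 14176 genes). Among all genes tested 26.2% were called lower and 26.6% called higher. The median log2 fold change was -0.11 for the members and 0.01 for all genes. After poly(I:C) 56 members fell and 6 rose, with 15 not called, where 36.3% of all genes tested were called lower and 39.8% higher. The median was -0.22 for the members and 0.04 for all genes, and the members ranged from -0.80 to 0.58. No member changed by as much as 2-fold in either comparison. Both comparisons share the mock libraries, so they are not independent of each other.

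These splits move with the scaling. With scaling to total counts in place of TMM, poly(dA:dT) gave 24 members lower and 13 higher, and poly(I:C) gave 40 lower and 16 higher. That scaling raised the median of all genes after poly(I:C) by 0.11, from 0.04 to 0.15. The difference of the members' median from it was -0.26 under both scalings. That sameness was fixed in advance, because scaling shifts all genes of a comparison nearly equally. With a filter of 50 counts, which changes the genes tested, the difference was -0.19. By class, scaling to total counts gave with poly(I:C) 9 lower and 4 higher small subunit proteins with a bacterial counterpart, and 2 and 3 particular to mitochondria. In the large subunit classes it gave 18 and 3 and 10 and 6. Log2 fold changes, calls and CPM below use TMM unless another setting is named, while shares of counts and their ratios use raw counts.

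**Figure D1:**
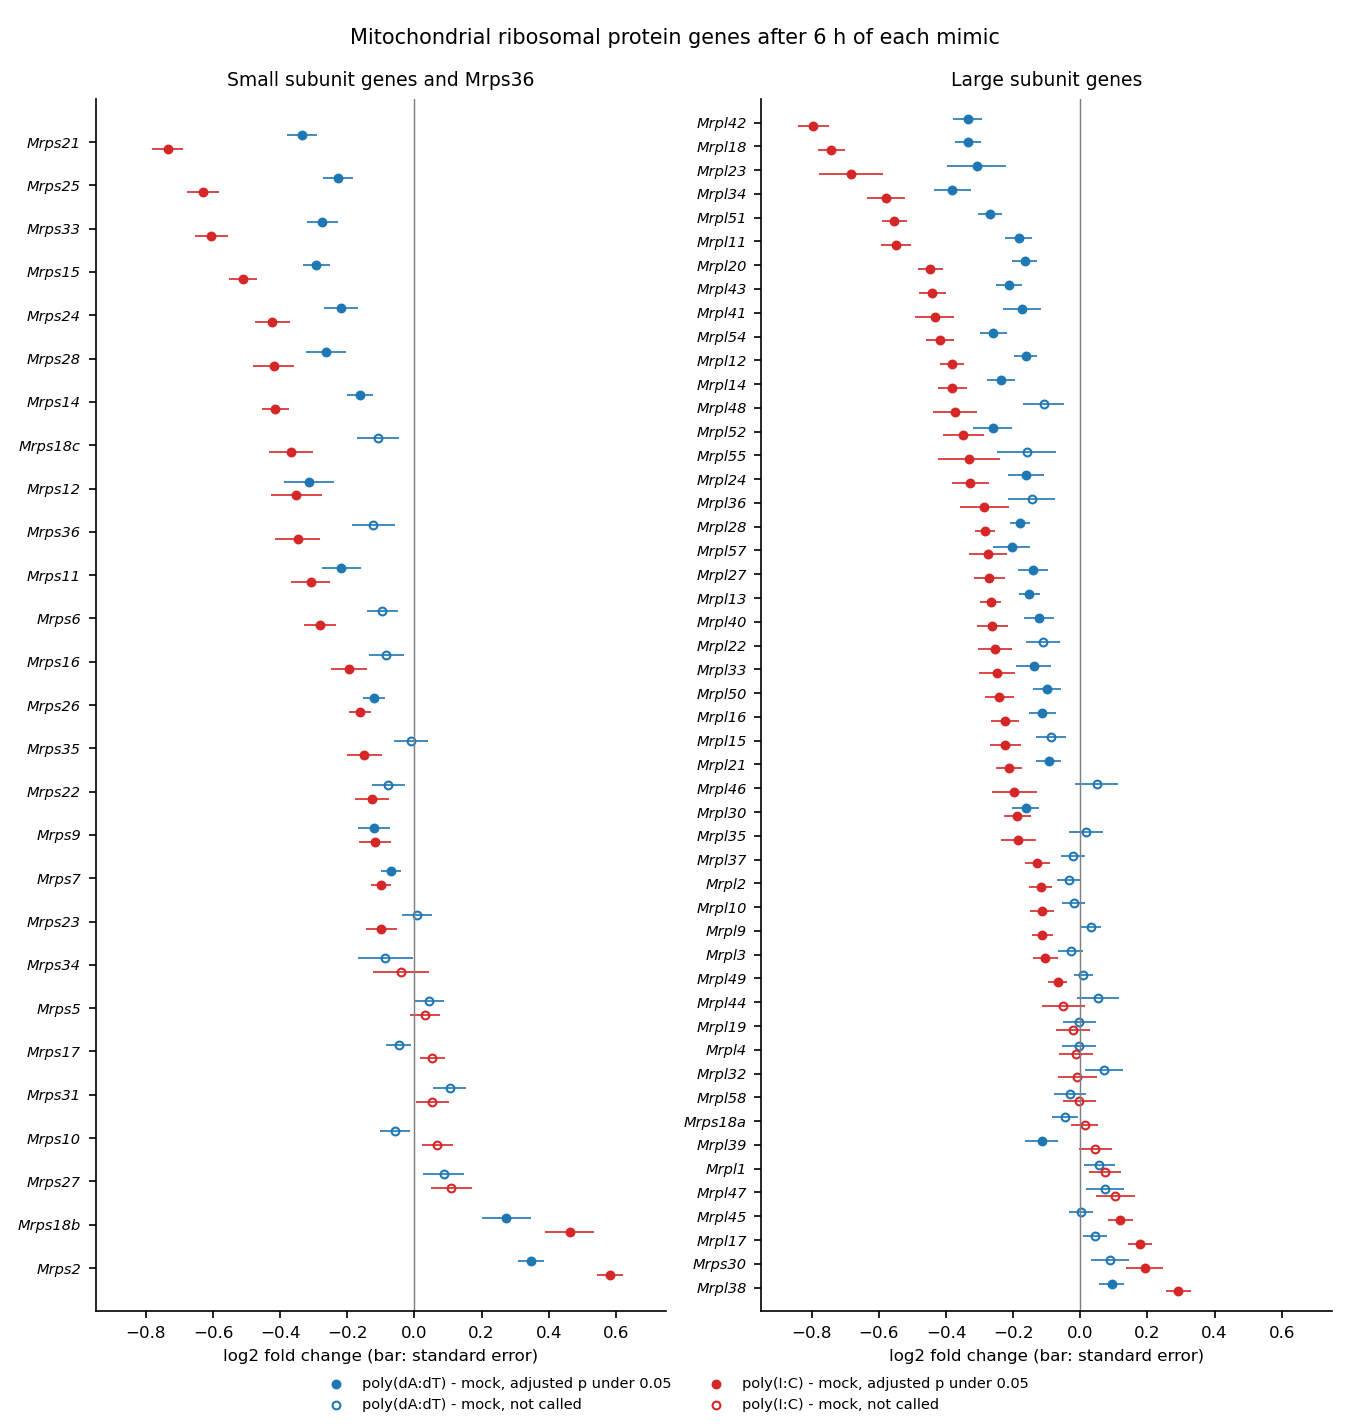
Log2 fold change (horizontal axis, bars are standard errors) of the 77 tested members after poly(dA:dT) (blue) and poly(I:C) (red) against mock, small subunit genes with Mrps36 at left and large subunit genes at right, filled where the adjusted p is under 0.05. Most points lie left of 0, the poly(I:C) points reach -0.80, and Mrps2 and Mrps18b stand to the right with both mimics.

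Summed over the members, 0.435% ± 0.0054 of all assigned counts in mock came from mitochondrial ribosomal protein genes, 0.428% ± 0.0037 with poly(dA:dT) and 0.411% ± 0.0026 with poly(I:C) (SD, n = 3). The mock libraries spanned 0.429% to 0.439% and the poly(dA:dT) libraries 0.424% to 0.431%, so these overlapped, whereas the poly(I:C) libraries lay lower at 0.408% to 0.413%. That overlap depends on the denominator. A second denominator was the counts on autosomal and X-linked protein-coding genes without the 100 best-counted genes. With it mock spanned 0.512% to 0.525%, poly(dA:dT) 0.500% to 0.509% and poly(I:C) 0.476% to 0.482%, without overlap. The counts on small subunit genes were 0.431 ± 0.00092 times those on large subunit genes in mock, 0.434 ± 0.0011 with poly(dA:dT) and 0.442 ± 0.0016 with poly(I:C).

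Seen in order, 29 of the 77 tested members had all 3 mock libraries above all 3 poly(dA:dT) libraries and these above all 3 poly(I:C) libraries, and 3 members (Mrps2, Mrps18b and Mrpl38) had the opposite order. Over all genes tested 20.7% showed the falling order and 18.4% the rising order. Between the mimics, 42 members were lower and 8 higher after poly(I:C) than after poly(dA:dT), with 27 not called, a median of -0.11 against 0.00 for all genes, and 32.1% of all genes tested called lower and 31.3% higher. The 8 were Mrps2, Mrps18b, Mrpl38, Mrpl39, Mrpl45, Mrpl17, Mrps10 and Mrps17, and 5 were left without poly(I:C) replicate 1 or without poly(I:C) replicate 2. With scaling to total counts that split was 28 lower and 10 higher.

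Among the small subunit proteins with a bacterial counterpart, 9 of 16 fell and 1 rose after poly(dA:dT), and 12 fell and 1 rose after poly(I:C), with medians of -0.11 and -0.30. Mrps21, the counterpart of bacterial S21, fell most of this group after poly(I:C). It stood at 63.0, 63.4 and 61.6 CPM in the mock libraries, 46.8, 52.6 and 49.6 with poly(dA:dT) and 39.7, 35.2 and 38.4 with poly(I:C), so the 3 groups did not overlap and stepped down from mock to poly(I:C). Its log2 fold change was -0.33 ± 0.0441 (SE, edgeR adjusted p = 2.31e-11) with poly(dA:dT) and -0.74 ± 0.0470 (adjusted p = 8.79e-33) with poly(I:C). Mrps12, the counterpart of the decoding-centre protein S12, went from 21.1, 19.9 and 18.6 CPM in mock to 15.5, 16.9 and 15.6 and 15.7, 14.4 and 17.2. Both treated groups lay below mock and overlapped each other, with changes of -0.31 (edgeR adjusted p = 0.000139) and -0.35 (adjusted p = 1.66e-05).

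Mrps2 (chromosome 2, 28468066 to 28471178, plus strand), the counterpart of bacterial S2, was the member that rose in this group and the strongest riser of all members. Its mock libraries held 59.2, 59.3 and 59.1 CPM, the poly(dA:dT) libraries 78.8, 73.5 and 73.8 and the poly(I:C) libraries 87.3, 89.0 and 89.9. All treated libraries were above all mock libraries, and all poly(I:C) libraries above all poly(dA:dT) libraries. The change was 0.35 ± 0.0388 on the log2 scale with poly(dA:dT) (edgeR adjusted p = 1.42e-14) and 0.58 ± 0.0385 with poly(I:C) (adjusted p = 1.76e-31). None of its exon bases is shared with another gene. Mrps10, the counterpart of S10, was called in neither comparison with mock, although with poly(I:C) it was called higher with upper-quartile factors (0.102), a filter of 50 counts (0.112) and total counts (0.183). It was higher after poly(I:C) than after poly(dA:dT) by 0.13 (edgeR adjusted p = 0.0111), a call lost without poly(I:C) replicate 1 (0.112) or replicate 2 (0.111).

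Of the 10 small subunit proteins particular to mitochondria, 3 fell and 1 rose with poly(dA:dT) and 6 fell and 1 rose with poly(I:C), with medians of -0.04 and -0.11. The 3 falls with poly(dA:dT) are near the 26.2% of all genes tested called lower there, and with poly(I:C) that background is 36.3%. Mrps33 had 58.0, 57.1 and 53.1 CPM in mock, 48.3, 43.3 and 48.1 with poly(dA:dT) and 38.8, 37.8 and 33.8 with poly(I:C), again 3 groups without overlap. Its changes were -0.27 ± 0.0464 (edgeR adjusted p = 1.15e-07) and -0.61 ± 0.0491 (adjusted p = 1.19e-23). Mrps25 fell by a similar size, with -0.23 and -0.63, but 69.8% of its exon bases are shared with Nr2c2, a nuclear receptor gene that itself changed by -0.20 and -0.26, so its value is uncertain. The count of risers in this group was 2 without mock replicate 3 with either mimic, and 2 without poly(dA:dT) replicate 2 with poly(dA:dT).

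The Mrps18 paralogs, 3 related genes whose products sit at different places in the mitoribosome, gave different calls. Mrps18b, on the small subunit, rose from 17.3, 15.3 and 17.2 CPM in mock to 19.98, 20.4 and 19.7 with poly(dA:dT) and 23.3, 24.2 and 20.7 with poly(I:C), with no overlap between the groups. Its changes were 0.27 ± 0.0725 (edgeR adjusted p = 0.000633) and 0.46 ± 0.0722 (adjusted p = 3.87e-09), and 30.5% of its exon bases are shared with Gm16279, a gene at 0.732 ± 0.361 CPM in mock (SD, n = 3) that was not called. The call of Mrps18b between the mimics was lost in 5 of 17 alternatives. These were the DESeq2 test (adjusted p = 0.0983), no filter, and leaving out poly(dA:dT) replicate 3 or poly(I:C) replicate 1 or 2. Mrps18c, the paralog that takes the place of bacterial S18, had 27.4, 27.1 and 27.4 CPM in mock and 21.7, 22.2 and 19.2 after poly(I:C), a fall of -0.37 ± 0.0653 (edgeR adjusted p = 1.91e-07), and -0.11 with poly(dA:dT) (adjusted p = 0.140). Mrps18a, a large subunit protein despite its name, had 72.8, 71.5 and 74.6 CPM in mock, 72.0, 70.1 and 69.9 and 79.6, 71.8 and 68.8 in the treated groups, which overlapped. It was called in neither comparison (-0.05 and 0.01, edgeR adjusted p = 0.345 and 0.775), although scaling to total counts gave a called rise of 0.127 with poly(I:C). The differences between the paralogs were not tested.

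**Figure D2:**
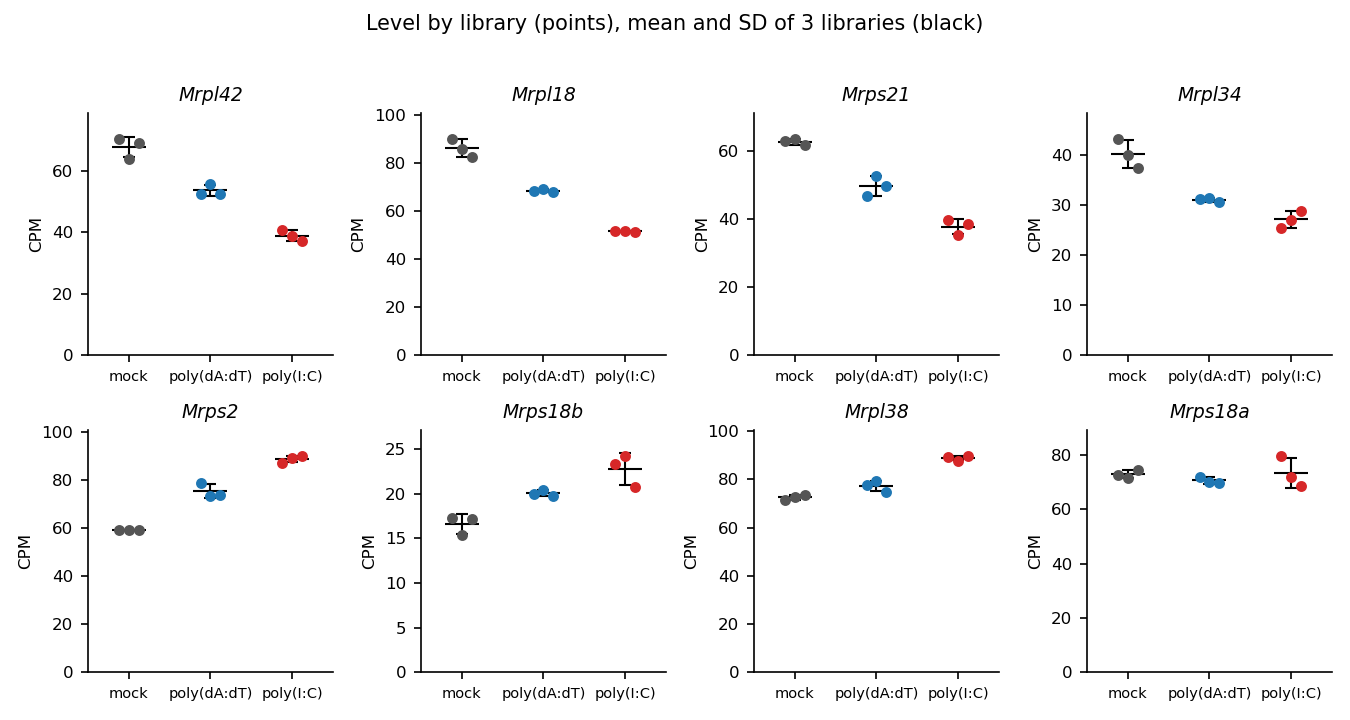
CPM (vertical axes, from 0) of 8 members in each library by group, with the mean and SD of 3 libraries in black. Mrpl42, Mrpl18, Mrps21 and Mrpl34 step down from mock to poly(I:C), Mrps2, Mrps18b and Mrpl38 step up, and the groups of Mrps18a overlap.

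Among the large subunit proteins with a bacterial counterpart, 15 of 30 fell and 0 rose after poly(dA:dT), where 17 had an unadjusted p under 0.05, and 24 fell and 1 rose after poly(I:C). The medians were -0.13 and -0.24. Over all genes tested 26.2% and 36.3% were called lower, and 26.6% and 39.8% higher. The DESeq2 test also called 0 of the 30 higher after poly(dA:dT), 1 was called without poly(dA:dT) replicate 3, and scaling to total counts gave 9 lower and 5 higher. Mrpl18, the counterpart of L18, a protein of the central protuberance of the large subunit, had 89.97, 86.0 and 82.5 CPM in mock, 68.5, 69.1 and 67.9 with poly(dA:dT) and 51.6, 51.9 and 51.4 with poly(I:C). The libraries of each group were close together and the groups did not overlap. Its changes were -0.33 ± 0.0377 (edgeR adjusted p = 1.81e-14) and -0.74 ± 0.0401 (adjusted p = 4.88e-40). Tcp1, a chaperonin gene with which it shares 10.1% of its exon bases, changed by -0.26 and -0.64.

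Mrpl34, the counterpart of L34, showed the largest fall of all members after poly(dA:dT). It went from 43.1, 40.03 and 37.4 CPM in mock to 31.1, 31.3 and 30.6 with poly(dA:dT) and 25.4, 27.0 and 28.9 with poly(I:C), stepwise and without overlap. The changes were -0.38 ± 0.0544 (edgeR adjusted p = 4.70e-10) and -0.58 ± 0.0568 (adjusted p = 1.80e-18). Mrpl23, whose bacterial counterpart lies at the exit of the peptide tunnel, was low throughout, at 12.9, 14.1 and 15.6 CPM in mock, 11.5, 10.5 and 12.3 with poly(dA:dT) and 7.71, 9.05 and 9.72 with poly(I:C). It fell by 0.31 and 0.68 on the log2 scale (edgeR adjusted p = 0.00174 and 6.80e-11).

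Mrpl11, the counterpart of the L11 protein near the site where translation factors bind, stood at 66.2 ± 3.17 CPM in mock, 58.5 ± 0.825 with poly(dA:dT) and 45.4 ± 0.491 with poly(I:C) (SD, n = 3). It fell by 0.55 after poly(I:C) and was also lower there than after poly(dA:dT), by -0.37 (edgeR adjusted p = 5.84e-13). Mrpl28, the highest member per kb, fell by 0.18 and 0.28 (edgeR adjusted p = 2.74e-08 and 7.91e-17). Mrpl17, the counterpart of L17, was the only riser of this group, from 84.9, 84.7 and 89.6 CPM in mock to 96.2, 100.3 and 95.9 after poly(I:C), a change of 0.18 ± 0.0353 (edgeR adjusted p = 2.29e-06); upper-quartile scaling gave 3 risers. With poly(dA:dT) its change was 0.04 (adjusted p = 0.297).

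Of the 20 tested large subunit proteins particular to mitochondria, 10 fell and 1 rose with poly(dA:dT) and 13 fell and 3 rose with poly(I:C), with medians of -0.10 and -0.22. The shares of all genes tested called lower were 26.2% and 36.3%, and those called higher 26.6% and 39.8%. With scaling to total counts 6 of the 20 fell and 3 rose after poly(dA:dT). Mrpl42 (chromosome 10, 95480805 to 95501940, minus strand) fell most of all members after poly(I:C). Its libraries held 70.2, 63.9 and 68.8 CPM in mock, 52.5, 55.7 and 52.5 with poly(dA:dT) and 40.8, 38.9 and 37.1 with poly(I:C). The groups did not overlap, and with poly(I:C) the fitted level fell by 42.4%. The changes were -0.34 ± 0.0425 (edgeR adjusted p = 4.52e-12) and -0.80 ± 0.0457 (adjusted p = 2.45e-37). Mrpl54 and Mrpl48 fell by 0.42 and 0.37 after poly(I:C) (edgeR adjusted p = 1.74e-18 and 8.61e-08), and after poly(dA:dT) Mrpl54 fell by 0.26 while Mrpl48 was not called (-0.11, adjusted p = 0.127).

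Mrpl38, a protein of the central protuberance, rose stepwise from 71.6, 72.8 and 73.4 CPM in mock to 77.8, 79.3 and 74.97 with poly(dA:dT) and 89.2, 87.8 and 89.6 with poly(I:C). The change with poly(I:C) was 0.29 ± 0.0369 (edgeR adjusted p = 1.16e-12). With poly(dA:dT) it was 0.09 ± 0.0370 (adjusted p = 0.0263), a call that was lost when mock replicate 1 (0.0824) or 2 (0.0948) or poly(dA:dT) library 1 (0.0879) or 2 (0.0739) was left out, and with the DESeq2 test (0.0734). Mrps30, a large subunit protein despite its name, had 31.3, 30.2 and 29.9 CPM in mock and 35.4, 34.8 and 34.1 after poly(I:C), a rise of 0.19 (edgeR adjusted p = 0.00126). Mrpl45, which lies by the tunnel exit and helps to hold the mitoribosome at the inner membrane, had 81.6, 83.3 and 80.9 CPM in mock and 91.4, 89.9 and 85.2 after poly(I:C), groups that were close but did not overlap. Its rise was 0.12 (edgeR adjusted p = 0.00192) and did not pass the DESeq2 test (adjusted p = 0.0637).

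Calls at the edge of the threshold were Mrpl39 and Mrpl49. Mrpl39 was -0.11 with poly(dA:dT) (edgeR adjusted p = 0.0411), and that call was lost in 10 of 17 alternatives, among them without any 1 of the 3 mock libraries (-0.112 to -0.118). Mrpl39 was then 0.16 higher with poly(I:C) than with poly(dA:dT) (adjusted p = 0.00357), which was lost without poly(I:C) replicate 1 (0.119). Mrpl49 was -0.07 with poly(I:C) (edgeR adjusted p = 0.0285), lost without mock replicate 1 (-0.0547) or poly(I:C) replicate 3 (-0.0417), and 0.0475 with scaling to total counts, the other direction. Mrps36, which carries a mitoribosomal name but is known as a subunit of the oxoglutarate dehydrogenase complex, fell by 0.35 after poly(I:C) (edgeR adjusted p = 2.10e-06). After poly(dA:dT) it was at -0.12 (adjusted p = 0.102), and called lower when mock replicate 1 (-0.204) or poly(dA:dT) replicate 3 (-0.193) was left out.

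Transcript length moved with these changes. By the longest coding transcript, 21 of the 23 tested members of up to 1000 bases fell after poly(I:C), with a median of -0.37, against 22 of 29 between 1000 and 2000 bases (median -0.13) and 13 of 25 above 2000 bases (median -0.10). Among other protein-coding genes of the same classes 61.1%, 45.9% and 35.8% were called lower after poly(I:C), and they had medians of -0.39 (581 genes), -0.12 (2454 genes) and 0.06 (9593 genes) after poly(I:C). After poly(dA:dT) the members' medians were -0.17, -0.07 and -0.03, and those of other genes -0.20, -0.06 and 0.03. Across the 77 members Spearman's rho between log2 fold change and length was 0.51 with poly(dA:dT) and 0.48 with poly(I:C), and across 12628 other protein-coding genes 0.12 in both, a description across genes that share libraries and are not independent replicates. The median length was 1339 bases for the members and 3176 for the other genes. With the mean mock CPM in place of length, rho was -0.43 with poly(dA:dT) and -0.47 with poly(I:C) across the other genes. Across the members it was -0.08 and -0.04. The other genes of a length class were not matched to the members by level. The part of length or of level in the members' changes was not tested.

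**Figure D3:**
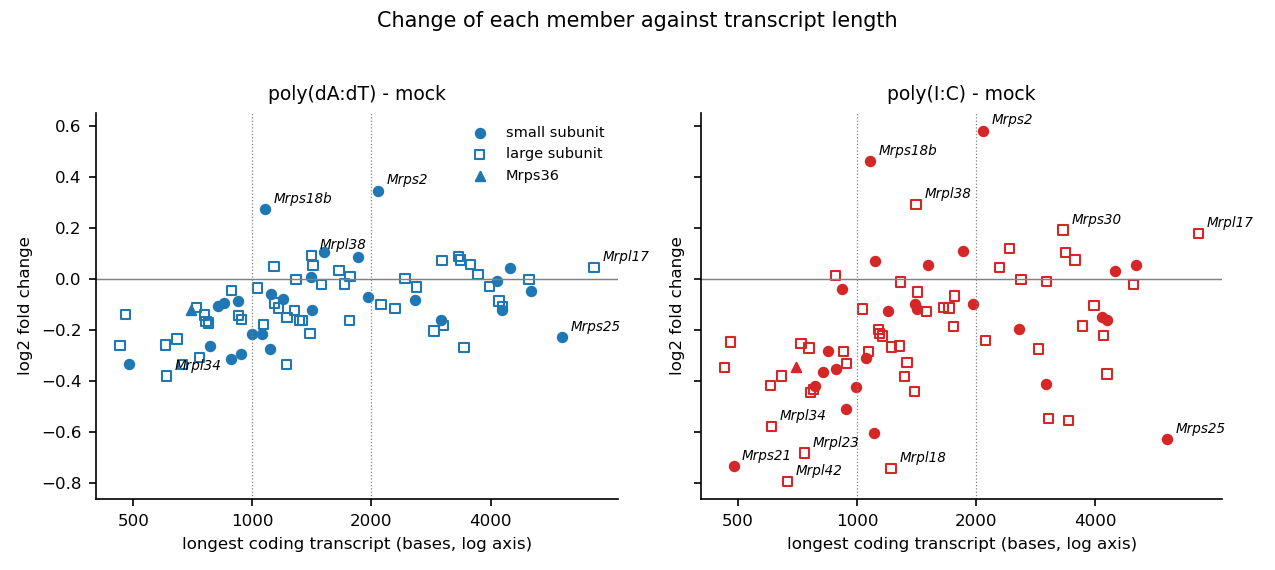
Log2 fold change against mock (vertical axis) of each tested member against the length of its longest coding transcript (horizontal log axis, dotted lines at 1000 and 2000 bases), with poly(dA:dT) at left and poly(I:C) at right. Of the members up to 1000 bases 21 of 23 fell after poly(I:C), against 61.1% of the 581 other protein-coding genes of that class, while Mrps2, Mrps18b and Mrpl38 rose at lengths above that.

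Of the 5 mitoribosome proteins with symbols of another form, 4 fell and 1 rose with each mimic. Among all genes tested 26.2% were called lower and 26.6% higher with poly(dA:dT), and 36.3% and 39.8% with poly(I:C). Dap3, a GTP-binding small subunit protein, had 98.6 ± 1.53 CPM in mock, 90.3 ± 2.64 with poly(dA:dT) and 84.1 ± 2.44 with poly(I:C) (SD, n = 3), changes of -0.13 and -0.23 (edgeR adjusted p = 0.000685 and 1.47e-09). Chchd1, also of the small subunit, changed by -0.19 and -0.39, Aurkaip1 by -0.12 and -0.28, and the large subunit protein Gadd45gip1 by -0.28 and -0.40, and all of these were called lower with both mimics. The poly(dA:dT) call of Aurkaip1 was lost without mock replicate 1 (-0.0821), and with scaling to total counts 2 of the 5 were lower. Ptcd3, an RNA-binding pentatricopeptide protein of the small subunit, rose from 107 ± 2.49 CPM in mock to 119 ± 2.61 and 129 ± 2.37, by 0.15 and 0.27 (edgeR adjusted p = 2.60e-05 and 4.50e-14).

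Most of the listed genes that build the mitoribosome were called higher. Among all genes tested 26.6% were called higher and 26.2% lower with poly(dA:dT), and 39.8% and 36.3% with poly(I:C). Of 25 assembly factors 16 rose and 1 fell with poly(dA:dT) and 21 rose and 2 fell with poly(I:C), with medians of 0.18 and 0.42, and Rbfa, a factor that matures the small subunit, was lower with both (-0.17 and -0.36). The fall after poly(dA:dT) was not called when mock replicate 2 or poly(dA:dT) replicate 3 was left out, and 1 rather than 2 falls were called after poly(I:C) without mock replicate 1. Mettl17, a factor of small subunit assembly, rose from 8.63 ± 0.849 CPM in mock to 11.2 ± 0.684 and 17.6 ± 2.15 (SD, n = 3), by 0.39 ± 0.0969 and 1.05 ± 0.0914 (edgeR adjusted p = 0.000243 and 9.56e-22). Mrm1, which methylates the large rRNA, rose by 0.66 and 0.90, and Ddx28, a helicase of large subunit assembly, by 0.48 and 0.65. Tfb1m, which methylates the small rRNA, rose by 0.61 after poly(I:C) (edgeR adjusted p = 1.22e-12) and was at 0.16 after poly(dA:dT) (adjusted p = 0.0799). With poly(dA:dT) Tfb1m was called higher without poly(dA:dT) replicate 1 (0.265) and with upper-quartile factors (0.182) or total counts (0.235).

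The 16 factors of mitochondrial translation gave 6 up and 3 down with poly(dA:dT) and 8 up and 6 down with poly(I:C). Of all genes tested 26.6% were called higher and 26.2% lower with poly(dA:dT), and 39.8% and 36.3% with poly(I:C), so the 6 down with poly(I:C) are at the background. Rmnd1, needed for translation at the inner membrane, rose by 0.70 and 1.06, and the release factor Mtrf1l by 0.55 and 1.10, whereas Mtfmt, which formylates the initiator tRNA, fell by 0.57 after poly(I:C) (edgeR adjusted p = 1.69e-09). Of 20 mitochondrial aminoacyl-tRNA synthetase genes 9 rose and 1 fell with poly(dA:dT) and 11 rose and 4 fell with poly(I:C). The 9 became 5 when mock replicate 3 or poly(dA:dT) replicate 2 was left out, and 3 with the DESeq2 test. Nars2 and Ears2, for asparagine and glutamate, rose by 0.61 and 0.77 after poly(I:C), and Aars2, for alanine, fell by 0.40 (edgeR adjusted p = 2.31e-11, 2.28e-14 and 5.91e-08). Of the 7 genes of mitochondrial transcription 2 rose and 0 fell after poly(dA:dT), where 2 had an unadjusted p under 0.05 and the DESeq2 test called 1 rise and 0 falls, and 3 rose and 2 fell after poly(I:C). The shares that rose are near the background in both comparisons. Mterf1a, a termination factor gene, rose most after poly(I:C), from 2.44 ± 0.302 to 4.37 ± 0.451 CPM (SD, n = 3), by 0.84 (edgeR adjusted p = 3.72e-06). Its close paralog Mterf1b, at 1.05 ± 0.0850 CPM in mock, was not called there (0.53, adjusted p = 0.0701), and reads of both may be split. The elongation factor Tefm rose by 0.45 and 0.61 and Tfam, which packages mitochondrial DNA, by 0.11 and 0.22, the former of which did not pass the DESeq2 test (0.0951, adjusted p = 0.0593). With scaling to total counts 5 rose and 0 fell after poly(I:C), and under TMM the 2 falls became 1 without mock replicate 1 or 3 and without poly(I:C) replicate 1 or 3.

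Of 10 regulators of nuclear genes for mitochondria, 4 rose and 2 fell after poly(dA:dT), or 7 and 1 with scaling to total counts. After poly(I:C) 6 rose and 2 fell. Of all genes tested 26.6% were called higher and 26.2% lower with poly(dA:dT), and 39.8% and 36.3% with poly(I:C). Whether the shares of regulators that rose or fell differ from this background was not tested. The coactivator Ppargc1a rose from 3.15 ± 0.407 CPM in mock to 9.39 ± 0.941 after poly(I:C) (SD, n = 3), by 1.58 ± 0.132 on the log2 scale, and its relative Ppargc1b by 1.36 ± 0.122 (edgeR adjusted p = 4.23e-23 and 5.36e-21). Pprc1, the third coactivator of this family, rose with both mimics, by 0.39 and 0.66. Of the factors whose motifs were counted above, Nrf1 was not called (0.04 and 0.03, adjusted p = 0.381 and 0.548), while Gabpa changed by -0.23 and -0.43 and Yy1 by -0.15 and -0.32, both called lower with each mimic; these 3 were chosen after their values were seen.

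Nuclear genes of oxidative phosphorylation subunits fell nearly throughout, 72 of 78 with poly(dA:dT) and 73 of 78 with poly(I:C), with medians of -0.24 and -0.51. With each mimic the largest fall among called genes was that of Uqcrh, a complex III subunit, from 147 ± 0.224 CPM in mock to 106 ± 6.66 and 63.7 ± 5.12 (SD, n = 3), while Cox7a1, at 0.538 ± 0.143 CPM in mock, was at -0.64 with poly(dA:dT) without being called. Cox6b1 and Sdhd, of complexes IV and II, fell by 0.89 and 0.87 after poly(I:C). Cox6a2, at a mean of 1.121 CPM in mock, was the 1 gene of the list called higher with poly(dA:dT) (0.65, edgeR adjusted p = 0.0237). That call was lost with the DESeq2 test (0.637) and when mock replicate 1 (0.623) or 2 (0.631) or poly(dA:dT) library 1 (0.514) or 2 (0.561) was left out. Cytosolic ribosomal protein genes fell likewise, 73 and 74 of 76, with medians of -0.22 and -0.45, led by Rpl21 at -1.02 ± 0.0204 after poly(I:C) (edgeR adjusted p = 2.85e-95). Beside both lists, 26.2% of all genes tested were called lower with poly(dA:dT) and 36.3% with poly(I:C). Rps28 fell by 0.36 and 0.79, and Rpl24, counted at 2.97 ± 0.269 CPM in mock, fell by 0.95 after poly(I:C). Rpl24 was at -0.30 with poly(dA:dT), called lower there without poly(dA:dT) replicate 3 (-0.517). Whether reads of Rpl24 were lost or counted elsewhere was not tested, so its changes are uncertain.

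Mitochondrially encoded rRNAs and mRNAs, the RNA part and the templates of the mitoribosome, fell after poly(dA:dT) in 10 of 12 tested, with a median of -0.34, and rose after poly(I:C) in 10 of 12, with a median of 0.31. Of all genes tested 26.2% were called lower after poly(dA:dT) and 39.8% higher after poly(I:C). The 1 of the 12 called lower after poly(I:C) was mt-Nd3, a complex I subunit gene and the largest change of this list in size, from 1.57 ± 0.162 to 0.968 ± 0.148 CPM (SD, n = 3), a change of -0.68 (edgeR adjusted p = 0.0198). That call was lost without mock replicate 3 (-0.625) or poly(I:C) replicate 1 (-0.574), with total counts (-0.568) and with the DESeq2 test (-0.718). mt-Cytb had 392 ± 3.72 CPM in mock, 306 ± 5.65 with poly(dA:dT) and 587 ± 12.2 with poly(I:C), changes of -0.36 and 0.58, and mt-Nd1 912 ± 21.3, 662 ± 4.22 and 982 ± 33.2 CPM. Of other complex I subunit genes mt-Nd2 changed by -0.45 and 0.25 and mt-Nd4 by -0.41 and 0.47, all called. The rRNA genes mt-Rnr1 and mt-Rnr2 changed by -0.33 and -0.21 with poly(dA:dT) and by 0.17 and 0.26 with poly(I:C) (edgeR adjusted p = 4.25e-12, 2.00e-08, 4.46e-05 and 3.32e-13). The libraries were made from poly(A) RNA, and what part of these rRNAs they hold was not tested. As a share of all counts the mitochondrially encoded genes made up 0.319% ± 0.0028 in mock, 0.260% ± 0.0019 with poly(dA:dT) and 0.431% ± 0.010 with poly(I:C) (SD, n = 3). The interquartile range of the members after poly(I:C) was -0.37 to -0.04, against -0.61 to -0.43 for the oxidative phosphorylation genes; the difference between lists was not tested.

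**Figure D4:**
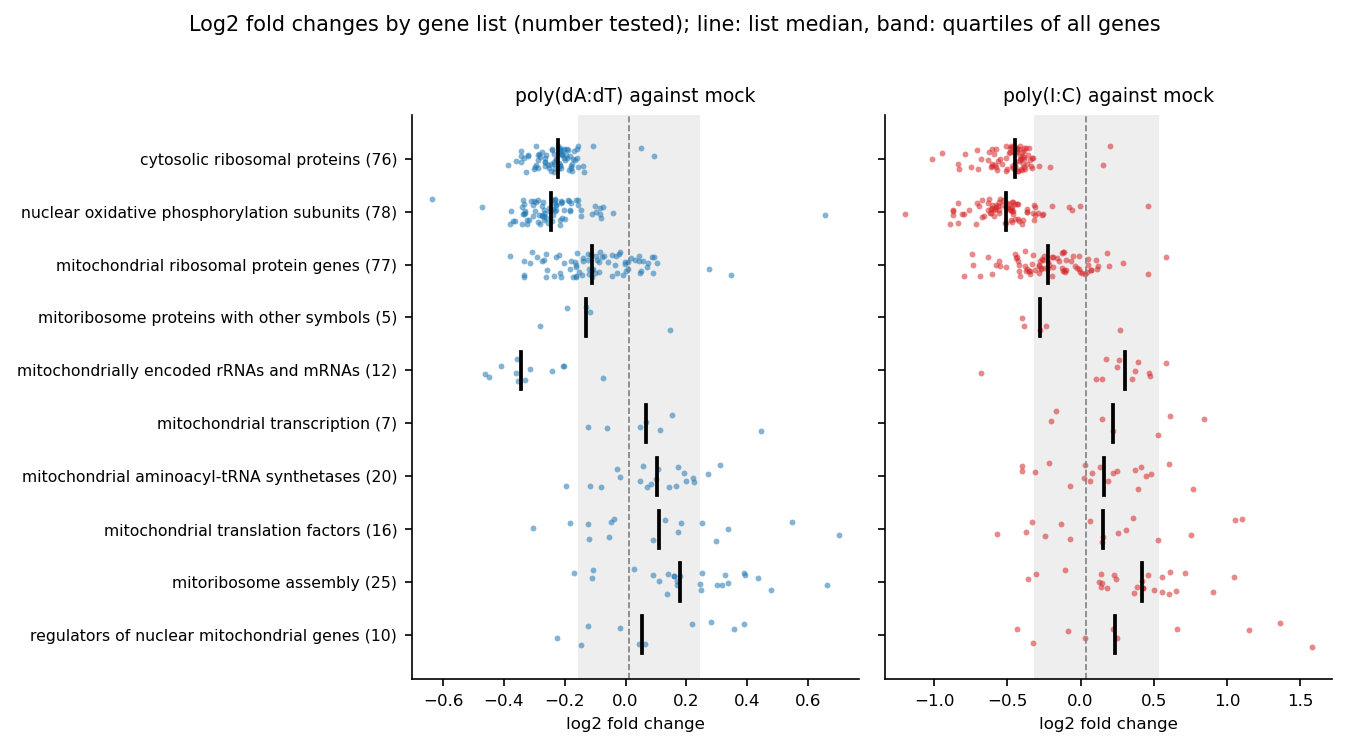
Log2 fold change against mock (horizontal axis) of every tested gene in 10 lists, poly(dA:dT) at left and poly(I:C) at right, with black lines at list medians and a dashed line and grey band at the median and quartiles of all 14176 genes. The mitochondrial ribosomal protein genes have medians of -0.11 and -0.22, the assembly factors 0.18 and 0.42.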

How the data were processed

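Poly(A) RNA libraries (TruSeq RNA v2, which does not mark the strand) of 9 samples were sequenced. The authors deposited raw counts for each Ensembl gene of each library, made with TopHat2 2.1.0 and HTSeq on GRCm38.p4 per the submitters' processing notes, which also name DESeq2. The sources used here do not give the annotation release or the treatment of shared and repeated sequence. Counts were used as deposited; symbols, types and positions came from GENCODE M21, which lacked 598 of 46603 identifiers.

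Groups were taken from the sample labels. All libraries entered 1 fit of the edgeR 4.0.16 quasi-likelihood test (R 4.3.3, limma 3.58.1, two-sided, robust, TMM scaling, filterByExpr by group), with a mean per group and 3 contrasts. Adjusted p-values are Benjamini-Hochberg over 14176 genes at 0.05; log2 fold changes use a prior count of 0.125, and the SE is the absolute log2 fold change over the root of F. CPM use TMM-scaled library sizes. Total counts of 16082772 to 29219797 per library put the limit that a count of 0 allows (3 counts) at 0.107 to 0.180 CPM, counting error only, because reads that carry no molecular identifier are not independent. Replicates differed by more than sampling noise (chi-square per degree of freedom 1.64 to 2.14). Reads of near-identical copies, such as the 5 pseudogenes named after members, may be split or lost. The edgeR fit was tested on simulated counts, for poly(I:C) against mock only.

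The members, gene lists and tests were chosen with earlier results of these data known. Per comparison the 6 members with the largest rise and fall among called, non-overlapping members are named, with the 3 highest and 3 lowest per kb, the untested member, Mrps36, the Mrps18 paralogs, the 5 other mitoribosome proteins, and the 2 largest changes per other list; others are named after their values were seen. One of the assembly symbols listed, Gtpbp5, had no entry. Alternatives were other scalings, filters, DESeq2 1.42.0, fits of the compared groups alone, leaving out each library, and the replicate number as a block.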

Additional observations from a re-analysis of the deposited data

How the results depend on the processing

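Over 17 alternatives the members' medians kept their sign in all 3 comparisons, and more members were called lower than higher in each. Scaling to total counts moved most: with poly(dA:dT) 13 higher, 24 lower and a median of -0.0353, with poly(I:C) 16 higher and a median of -0.1088, and between the mimics a median of -0.0693. Upper-quartile factors gave 11 higher and a median of -0.1902 with poly(I:C), and -0.0979 between the mimics. With a filter of 50 counts these were 11, -0.1794 and -0.0771, and with no filter the medians were -0.2511 and -0.1346 and 5 were higher between the mimics. The DESeq2 test gave a median of -0.2474 with poly(I:C) and 5 higher between the mimics. Leaving out each library gave 31 to 38 lower, 2 to 4 higher and medians of -0.1245 to -0.0851 with poly(dA:dT), 52 to 56, 6 to 7 and -0.2498 to -0.2123 with poly(I:C), and 36 to 42, 5 to 9 and -0.1299 to -0.109 between the mimics. Of the results for single named genes under alternatives 2844 were on the same side of the threshold in the same direction, 82 lost and 22 gained a call, and 1 reversed: Mrpl49 with poly(I:C), 0.0475 under total counts. The causes were not tested.

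The labels do not say whether the replicate numbers pair the samples. Deviations of same-numbered libraries correlated between -0.0938 and 0.0414, and those of differently numbered libraries between -0.0491 and 0.0696. With 3 libraries a group these values cannot decide whether there is a pairing. With the replicate number as a block the member calls were 37 lower and 3 higher, 56 and 6, and 42 and 8, with medians of -0.11, -0.221 and -0.109, as without it.

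Mrpl53, at 0 counts, was not detectable at this depth and with this counting.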

Other observations

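Mrps11 and Mrpl46 are the 1 pair of members whose exons overlap (7.97% of the exon bases of Mrps11 and 12.2% of those of Mrpl46, chromosome 7). Mrps11, a small subunit protein, fell by 0.22 after poly(dA:dT) and by 0.31 after poly(I:C) on the log2 scale (edgeR quasi-likelihood test, adjusted p = 0.000563 and 9.14e-07). Mrpl46, a large subunit protein, was at 0.05 after poly(dA:dT) (adjusted p = 0.546) and fell by 0.20 after poly(I:C) (adjusted p = 0.00535). Reads on the shared bases cannot be told apart in libraries without strand. Both were chosen after their values were seen.

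Nme3, whose exons overlap those of Mrps34, was at 0 counts in all 9 libraries, as was Mrpl53. Mapk8ip3, the other gene over Mrps34, rose by 0.51 with poly(dA:dT) and by 0.92 with poly(I:C), while Mrps34 was not called (-0.09 and -0.04). Lars2, the mitochondrial leucyl-tRNA synthetase gene, was counted at 2931 CPM in mock and at 2217 CPM after poly(I:C). Whether all of those reads came from its mRNA was not tested. These genes were also chosen after their values were seen.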
